A study of Mus musculus with 5 samples.

Results

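The genes described here make, break down and sense retinoic acid. There are 9 of them, chosen by symbol from the 17638 genes of the table, and all 9 passed the filter for testing (a mean normalised read count of at least 10 over the 5 libraries), as did 14339 genes in all. Rdh10, Aldh1a1 and Aldh1a2 act in synthesis, Dhrs3 and Cyp26b1 act against it, and Rara, Rarb, Rarg and Rxra encode nuclear receptors. Cyp26b1 was picked for its low values in Tbx1cko, so its difference between the groups is given as a description without a test, while the other 8 genes were picked for their role in the pathway.

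The series measured polyadenylated RNA of CD31-positive cells from the hearts of mice aged 2 months on a C57BL/6 background, 5 days after myocardial infarction. There were 2 libraries of Tbx1cko, which the series presents as an endothelial knockout of Tbx1, and 3 of control mice. All mice had an infarct, so no library shows the uninjured heart. The labels name neither the Cre driver, the deleted part of Tbx1 nor the alleles of the controls, and whether each library is from its own animal is not stated. The p-values therefore cover the spread among these 5 libraries, part of which may be technical.

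Retinoic acid is made from vitamin A in a pair of oxidation steps. RDH10 oxidises retinol to retinal, DHRS3 reduces retinal back to retinol, and the ALDH1A enzymes oxidise retinal to retinoic acid, which the cytochrome P450 enzymes of the CYP26 family inactivate. Retinoic acid binds the receptors RARα, RARβ and RARγ, which act on DNA as heterodimers with an RXR, and Rarb, Cyp26a1 and Dhrs3 are well-known targets that retinoic acid induces. In the embryo CYP26B1 limits retinoic acid around growing lymphatic vessels, and CYP26 genes are lowered in the pharyngeal region of mouse embryos that lack Tbx1.

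The libraries held 17769729 and 16061666 reads in Tbx1cko replicates 1 and 2, and 14689782, 18617284 and 17338772 in control replicates 1 to 3. The normalised count of Tbx1 was 18.3 and 17.3 in the Tbx1cko libraries, against 64.4, 72.7 and 69.6 in the control libraries. The defining endothelial markers Pecam1 and Cdh5 were abundant in every library, and so were macrophage markers, so the preparation was not purely endothelial. Control replicate 2 stood apart. Across genes, its log2 values correlated with those of the other libraries at r of 0.859 to 0.889, against 0.980 to 0.988 among the other 4, and its deviation from them followed the GC content of the transcripts (Spearman rho 0.801 across genes, which are not replicates). The group differences of the 9 genes are therefore given with and without it. Across genes, the log2 difference between the groups also followed GC content, at a Spearman rho of -0.714. With control replicate 2 left out it was -0.306, so leaving out that library did not remove the trend. The sex of the mice is not on the labels, and Xist had 0 and 12725 reads in Tbx1cko replicates 1 and 2, against 15, 0 and 2 in the controls. The Y-linked Ddx3y had 2109 and 3 reads in Tbx1cko, against 1481, 47 and 2249 in the controls, so control replicate 2 was low for both. Tbx1cko replicate 2 thus had a female pattern, and Tbx1cko replicate 1 and control replicates 1 and 3 a male pattern. Sex was therefore not balanced between the groups, and its part in the differences was not tested.

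The gene for the cytochrome P450 that degrades retinoic acid, Cyp26b1, had the widest range of the 9. Its normalised read count was 83.2 and 45.9 in Tbx1cko replicates 1 and 2, against 294, 5370 and 318 in control replicates 1 to 3. The highest Tbx1cko value lay well below the lowest control value, and control replicate 2 lay far above every other library. Behind these values were 91 and 45 reads in Tbx1cko, against 260, 5838 and 338 in the controls, so the Tbx1cko values rest on few reads. On log2(normalised count + 1) the difference, Tbx1cko minus control, was -3.66 (SE 1.35), or 12.7-fold lower. Without control replicate 2 it was -2.29 (SE 0.27), or 4.88-fold lower, and without control replicate 1 or 3 it was -4.38 or -4.32. The means were 64.5 ± 26.4 in Tbx1cko (SD, n = 2) and 1994 ± 2924 in control (SD, n = 3), where control replicate 2 supplied most of the control mean. Among the 14339 genes tested, the difference of Cyp26b1 ranked 4 from the lowest with all libraries and 10 from the lowest without control replicate 2. In these bulk libraries, fewer cells of a type and less RNA per cell cannot be told apart.

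**Figure D1:**
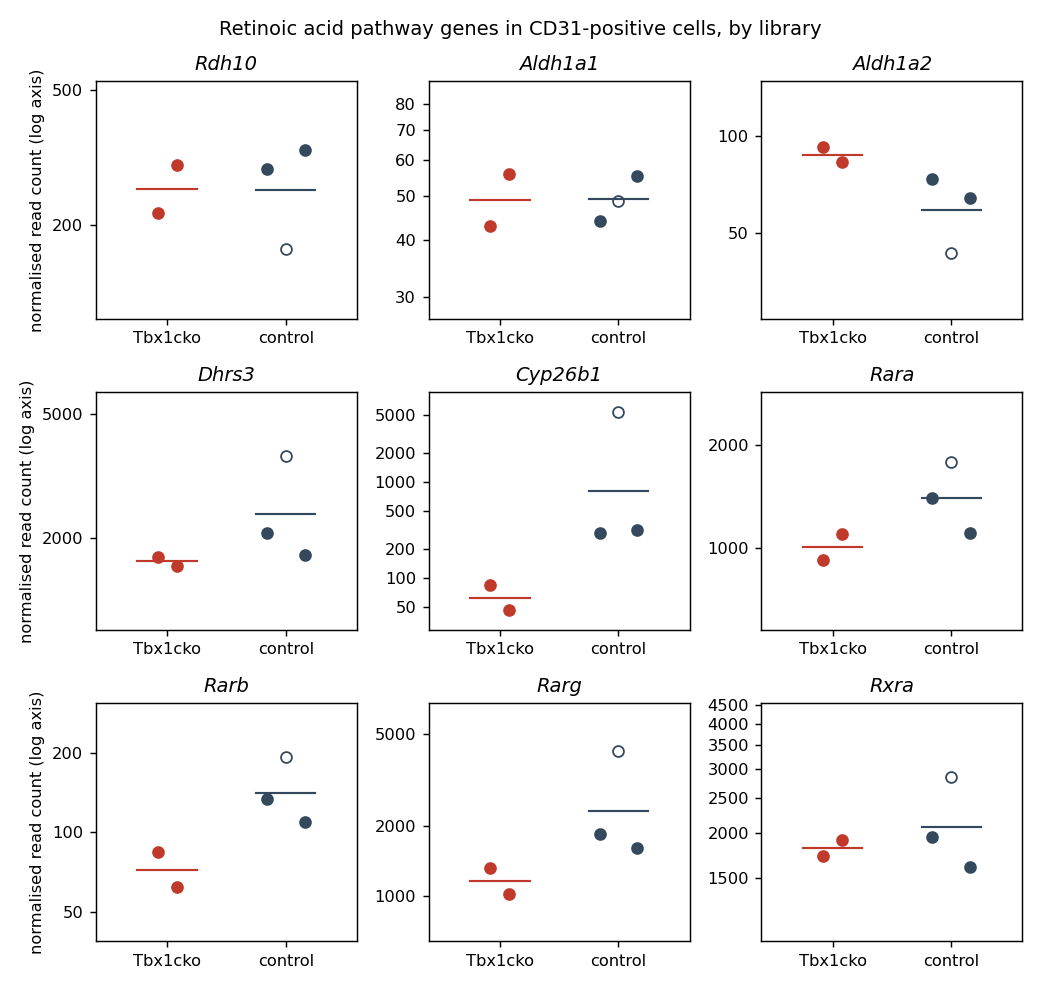
Normalised read count (log axis, scaled separately for each gene) of the 9 genes in the 2 Tbx1cko and 3 control libraries. Each point is a library, the open circle is control replicate 2, and the line is the geometric mean of the group. Cyp26b1 sits at 83.2 and 45.9 in Tbx1cko, against 294, 5370 and 318 in control, and Rarb, Rarg, Rara and Dhrs3 also have both Tbx1cko points below all control points.

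The position of Cyp26b1 in control replicate 2 was not shared by genes of like base composition. Cyp26b1 (ENSMUSG00000063415.12) is a protein-coding gene of chromosome 6 (84571414 to 84593908, minus strand, GRCm38), with 56.7% GC in its longest transcript. In control replicate 2 it stood 4.13 log2 units, or 17.5-fold, above the mean of control replicates 1 and 3, which was rank 2 from the highest among the 14339 genes. For the 587 genes whose GC content lay within 0.5 percentage points of it, the median deviation was 0.65 and 95% of them lay below 1.29. Correcting each library for GC content left the log2 difference between the groups at -3.38, and at -2.20 with control replicate 2 left out as well. The excess in that library was larger than that of genes of like GC content, and its cause was not tested.

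The stretch just upstream of the outermost GENCODE start of Cyp26b1 is shown because this is the member with the largest difference. It spans 152 bases, chr6:84593909-84594060 in GRCm38.p6, minus strand, from the RefSeq promoter window. Capitals mark TATAAA, which begins 41 bases before that start. The RefSeq start of the window lies further downstream, so TATAAA is farther from the RefSeq start.
Cyp26b1: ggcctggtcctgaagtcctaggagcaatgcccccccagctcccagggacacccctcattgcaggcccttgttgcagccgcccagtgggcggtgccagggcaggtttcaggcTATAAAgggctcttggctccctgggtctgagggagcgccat
TATAAA, searched on both strands, was in 13.6% of the 32851 RefSeq promoter windows (250 bases before to 50 after a start), and Cyp26b1 was the only one of the 8 members with such a window to hold it. The window of Cyp26b1 had none of the 4 core sequences of retinoic acid response elements that were searched (AGGTCA or AGTTCA or GGGTCA or GGTTCA, on both strands). That says only that these letters are not in this window.

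The genes whose profile over the 5 libraries lay closest to that of Cyp26b1 were Myl7, Myl4, Ybx2, Sspo and Npas2, by Euclidean distance between centred log2 values. Myl7 and Myl4 encode atrial myosin light chains, Ybx2 a germ cell RNA-binding protein, and Npas2 a clock transcription factor. Their distances were 1.63, 2.63, 3.08, 3.21 and 3.36 log2 units, where the median over the 11183 candidate genes was 5.28. Myl7 had 10.1 and 9.17 normalised reads in Tbx1cko, against 72.3, 320 and 53.6 in control. Myl4 had 54.9 and 51.0 in Tbx1cko, against 109.6, 519 and 137 in control. Since the genes were chosen for a profile like that of Cyp26b1, their low Tbx1cko values and high control replicate 2 follow from the choice.

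Because of Myl7 and Myl4, 9 atrial cardiomyocyte genes were listed after these values had been seen. With Myl7 and Myl4 left out, 4 of the other 7 were tested and had a lower mean in Tbx1cko, and 2 of the 4 (Sln and Stard10) had Tbx1cko values below all controls, as did 13.9% of all genes tested. Sln encodes sarcolipin, a regulator of the sarcoplasmic calcium pump. It had 4.57 and 0 normalised reads in Tbx1cko, against 31.6, 91.1 and 8.47 in control, so its separation rests on few reads. Stard10 had 47.6 and 27.5 in Tbx1cko, against 56.5, 176 and 57.4 in control. The 6 of these 7 genes in the table summed to 157 and 139 in Tbx1cko, against 243, 416 and 189 in control. The 5 cardiomyocyte markers not on this atrial list (Myh6, Tnnt2, Actc1, Tnni3 and Myl2) need not be absent from atrial cells. They summed to 8072 and 6969 in Tbx1cko, against 6481, 12412 and 5807 in control. The groups overlapped because of control replicate 2. Without it, both Tbx1cko sums lay above both controls, in a comparison of 2 with 2 libraries. Whether atrial tissue in the preparations had a part in the Cyp26b1 values was not tested.

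Markers of several cell types differed in level between the groups, and their part in the Cyp26b1 difference was not tested. Of all genes tested, 13.9% had Tbx1cko values below all control values and 14.2% had them above. Tbx1cko values lay below all controls for 5 of 10 lymphatic endothelial markers, 6 of 7 endocardial markers and 9 of 10 mural markers. The summed lymphatic level was 10523 and 9174 in Tbx1cko, against 12803 to 16125 in control. The endocardial sum was 19175 and 19450, against 23774 to 38348 in control, and the mural sum 38242 and 40553, against 47108 to 59716 in control. No marker of these 3 lists was at 0 in any library. The most abundant marker was Flt4 in the lymphatic, Vwf in the endocardial and Rgs5 in the mural list. A sum weighs such genes most and is no measure of cell number. The lymphatic marker Prox1 overlapped, with 226 and 208 normalised reads in Tbx1cko, against 336, 147 and 431 in control. There control replicate 2 was the lowest library. Without it Prox1 lay below both controls, with a log2 difference of -0.81 (DESeq2 adjusted p = 0.0328). In that setting DESeq2 called 6 lymphatic, 6 mural and 0 endocardial markers, beside 0.888% of 8779 genes. It also called 1 platelet marker, and 0 pan-endothelial and 0 macrophage and monocyte markers. Of the pan-endothelial markers, 5 of 10 lay below all controls and 1 above, with a sum of 173101 and 163018 in Tbx1cko, against 175014 to 231506 in control. Macrophage and monocyte markers went the other way, with 9 of 10 higher in mean and 5 of 10 above all controls. Without control replicate 2, 4 of 10 were lower in mean, and their median log2 difference fell from 0.43 to 0.20. The macrophage and monocyte sum overlapped, at 90953 and 93355 in Tbx1cko, against 56870 to 94807 in control. Of the platelet markers 5 of 6 were higher in mean and 2 of 6 above all controls, with a sum of 5245 and 4662 in Tbx1cko, against 2268 to 3912 in control. Of the epicardial and mesothelial markers, 8 of 10 were in the table and only Wt1 and Tbx18 passed the filter, with Upk3b, Upk1b, Msln and Lrrn4 at 0 in some libraries.

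**Figure D2:**
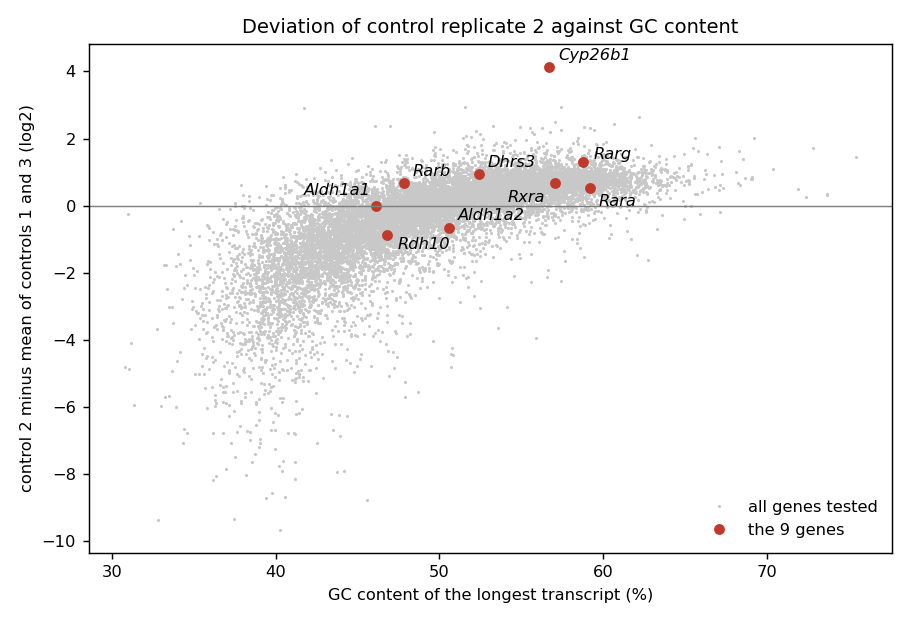
Deviation of control replicate 2 from the mean of control replicates 1 and 3 (log2) against the GC content of each gene's longest transcript (%). Grey points are all genes tested with a GC value and red points the 9 genes. Cyp26b1 lies at 4.13, far above the band of grey points at its GC content, whereas the other 8 lie between -0.87 and 1.29.

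Of the CYP26 family, only Cyp26b1 was well covered. Cyp26a1, the paralog that clears retinoic acid in many embryonic tissues, had 8.23 and 7.13 normalised reads in Tbx1cko, against 9.04, 15.6 and 17.9 in control. Cyp26c1 had 5.49 and 6.11 in Tbx1cko, against 3.39, 12.0 and 6.59 in control, below the filter for testing. Scaled for gene length, Cyp26b1 made up 68.1% and 54.7% of the reads of the 3 CYP26 genes in Tbx1cko, against 89.4%, 98.6% and 82.3% in control. Cyp26a1 made up 18.2% and 23.0% in Tbx1cko, against 7.43%, 0.775% and 12.5% in control. Since Cyp26b1 was picked for its low Tbx1cko values and led the family sum, these share differences follow from that choice. The normalised reads of Cyp26a1 itself were not higher in Tbx1cko, and the shares of Cyp26a1 and Cyp26c1 rest on few reads.

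Among the other 8 genes, none passed an adjusted p of 0.05 in limma over all genes tested, where 0 of 14339 genes (0%) passed. At an unadjusted p under 0.05, limma gave 1 of the 8, Rarb, beside 1.37% of all genes lower and 0.370% higher at that level. On the reads behind the normalised counts, edgeR and DESeq2 called 0 of the 8, beside 0% and 0.0279% of all genes. Without control replicate 2, limma called 0 of the 8, beside 0.0209% of all genes, and DESeq2 called 0 of the 5 to which it gave an adjusted p (none for Aldh1a1, Aldh1a2 and Rarb), beside 0.888% of 8779 genes. Of the 8, 4 (Dhrs3, Rara, Rarb and Rarg) had Tbx1cko values below all controls, beside 13.9% of all genes, and 1 (Aldh1a2) had them above, beside 14.2%. Their median log2 difference was -0.33, beside 0.03 over all genes tested. It was -0.24 without control replicate 2, beside 0.02.

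**Figure D3:**
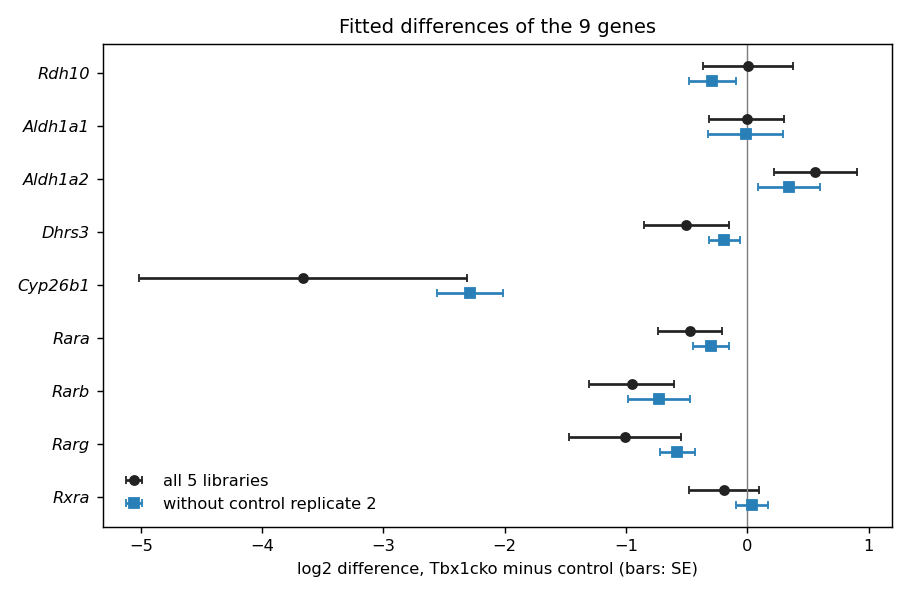
Fitted log2 difference, Tbx1cko minus control, for each gene (bars are the SE), with all 5 libraries (black circles) and without control replicate 2 (blue squares). Cyp26b1 lies at -3.66 and -2.29. For Dhrs3, Rarg and Rarb the difference is closer to 0 without that library, and for Rdh10 and Rxra it changes sign.

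The genes of retinoic acid synthesis were at low levels, and 1 of the 3, Aldh1a2, had Tbx1cko values above all controls, as did 14.2% of all genes. Aldh1a2 (RALDH2), the main retinoic acid-making enzyme of the embryo and of the epicardium, had 92.4 and 82.5 normalised reads in Tbx1cko, against 73.4, 43.2 and 64.0 in control. Both Tbx1cko values were above all controls, and control replicate 2 was the lowest library. The means were 87.5 ± 6.95 in Tbx1cko (SD, n = 2) and 60.2 ± 15.5 in control (SD, n = 3), a log2 difference of 0.56 (SE 0.34, limma adjusted p = 0.762), or 1.48-fold. Without control replicate 2 the difference was 0.34 (SE 0.25, limma adjusted p = 0.821). The summed level of the epicardial and mesothelial markers was 888 and 992 in Tbx1cko, against 850 to 947 in control, and that of the fibroblast markers 21721 and 43205 in Tbx1cko, against 27394 to 41001 in control. The groups overlapped for both sums, in which Wt1 and Col3a1 were the most abundant markers. Aldh1a2 lies on chromosome 9, from 71215789 to 71296243, plus strand.

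Aldh1a1, a second retinal dehydrogenase, did not separate the groups. It had 43.0 and 56.0 normalised reads in Tbx1cko, against 44.1, 48.8 and 55.5 in control, so the Tbx1cko values spanned those of the controls. The log2 difference was -0.0038 (SE 0.31, limma adjusted p = 0.997), and -0.011 (SE 0.31, limma adjusted p = 0.999) without control replicate 2. Rdh10, the retinol dehydrogenase, had 217 and 299.6 in Tbx1cko, against 292, 169 and 332 in control. Its lowest library was again control replicate 2, and the log2 difference of 0.0045 (SE 0.37, limma adjusted p = 0.997) became -0.29 (SE 0.19, limma adjusted p = 0.798) without it. Aldh1a3, the remaining member of the ALDH1A family, had 39.3 and 40.8 in Tbx1cko, against 26.0, 53.3 and 46.1 in control. Scaled for gene length, Aldh1a2 made up 70.3% and 64.4% of the ALDH1A reads in Tbx1cko, against 69.0%, 47.1% and 57.1% in control.

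Dhrs3, which returns retinal to retinol and so draws substrate away from synthesis, was the most abundant of the 9 per length. It had 1745 and 1625 normalised reads in Tbx1cko, against 2086, 3686 and 1772 in control. The Tbx1cko values lay below all controls, but Tbx1cko replicate 1 was close to control replicate 3. The log2 difference was -0.50 (SE 0.35, limma adjusted p = 0.762), and it was -0.19 (SE 0.13, limma adjusted p = 0.798) without control replicate 2. Dhrs3 lies on chromosome 4, from 144892827 to 144928209, plus strand.

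All 3 retinoic acid receptor genes had Tbx1cko values below all controls, as did 13.9% of all genes, and none passed the limma threshold. Rarg, the RARγ gene on chromosome 15, had 1311 and 1021 normalised reads in Tbx1cko, against 1850, 4226 and 1608 in control. All controls were above both Tbx1cko libraries, and control replicate 2 was far above the other controls. The log2 difference was -1.01 (SE 0.46, limma adjusted p = 0.762), or 2.01-fold lower. Without control replicate 2 it was -0.58 (SE 0.15, limma adjusted p = 0.317), or 1.49-fold lower, and DESeq2 without that library gave an adjusted p of 0.0721. Correcting for GC content left the log2 difference at -0.65, and at -0.45 with control replicate 2 left out as well. Its deviation in control replicate 2, 1.29 log2 units above the other controls, was close to 1.31, below which 95% of the genes of like GC content lay.

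Rarb, the RARβ gene, is itself induced by retinoic acid and was the least abundant of the 4 member receptors. It had 84.1 and 62.2 normalised reads in Tbx1cko, against 133, 192 and 109 in control, again without overlap. The means were 73.2 ± 15.5 in Tbx1cko (SD, n = 2) and 145 ± 42.7 in control (SD, n = 3). The log2 difference was -0.95 (SE 0.35, limma adjusted p = 0.762), or 1.94-fold lower, and it was -0.73 (SE 0.26, limma adjusted p = 0.526), or 1.66-fold lower, without control replicate 2. Correcting for GC content left it at -1.09. Rarb (chromosome 14, from 16430839 to 16819156, minus strand) shares 1793 exon bases with Top2b, a topoisomerase gene on the opposite strand. Whether the counting used strand is not stated, and reads of the shared bases cannot be assigned to either gene. Top2b had 3042 and 2834 normalised reads in Tbx1cko, against 2505, 193 and 2895 in control, and Rarb was highest in control replicate 2, the library in which Top2b was lowest.

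The retinoic acid response element upstream of Rarb is shown because it is the element through which retinoic acid is known to induce this gene, and because the data hold the level of its gene in every library. A direct repeat of the core sequences listed above, spaced by 5 bases (DR5), was searched on both strands of the RefSeq windows in GRCm38.p6. Among the 8 members with a window only Rarb held it, and Rdh10 had no window in the table. The Rarb stretch is chr14:16575506-16575535, minus strand, and its repeat begins 53 bases before the RefSeq start. Cyp26a1, shown beside it as a paralog of Cyp26b1, holds such a repeat at chr19:37697776-37697792, minus strand. Capitals mark the repeated core.
Rarb: gggaagGGTTCAccgaaAGTTCActcgcat
Cyp26a1: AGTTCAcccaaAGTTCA
The DR5 was in 32 of the 32851 windows (0.0974%), and repeats spaced by 1 and 2 bases were in 0.222% and 0.268% and in no window of a member. A match of letters is not evidence of binding. Besides Rarb, 5 genes with a DR5 in the window were tested, 1 with a lower and 4 with a higher mean in Tbx1cko, and 0 passed the limma threshold.

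Rara, the broadly expressed RARα gene on chromosome 11, had 924 and 1099 normalised reads in Tbx1cko, against 1393, 1776 and 1102 in control. Tbx1cko replicate 2 and control replicate 3 were nearly equal. The log2 difference was -0.47 (SE 0.27, limma adjusted p = 0.762), -0.30 (SE 0.15, limma adjusted p = 0.710) without control replicate 2, and -0.10 after correction for GC content, where the groups overlapped. Rxra, the heterodimer partner RXRα on chromosome 2, had 1722 and 1912 normalised reads in Tbx1cko, against 1943, 2847 and 1606 in control. Here the groups overlapped, with a log2 difference of -0.19 (SE 0.29, limma adjusted p = 0.794) that was 0.04 (SE 0.13, limma adjusted p = 0.974) without control replicate 2.

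**Figure D4:**
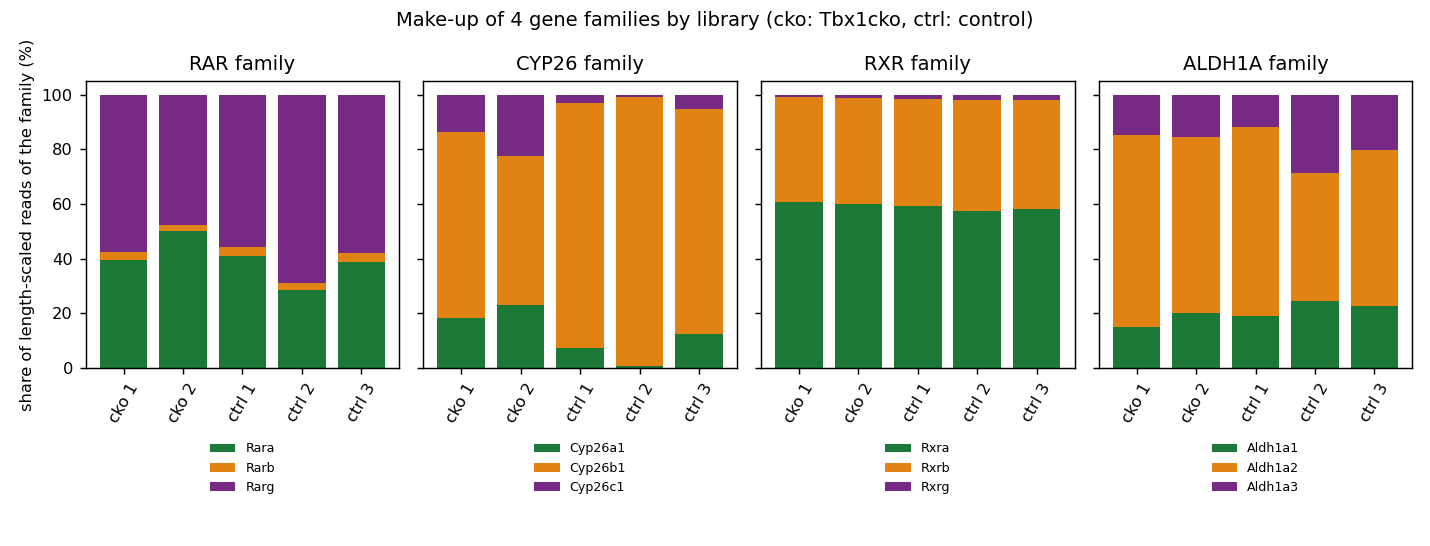
Share (%) of each gene in the length-scaled reads of its family, for the RAR, CYP26, RXR and ALDH1A families, in the 2 Tbx1cko and 3 control libraries. The share of Cyp26b1 is 68.1% and 54.7% in Tbx1cko, against 82.3% to 98.6% in control, which follows from its choice for low Tbx1cko values. The share of Rxra stays between 57.5% and 60.8% in all 5 libraries.

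Among the RAR genes, the shares of Rarg and Rara within a library did not separate the groups. Rarg made up 57.5% and 47.6% of the length-scaled RAR reads in Tbx1cko, against 55.8%, 69.1% and 58.0% in control. Rara made up 39.5% and 50.02% in Tbx1cko, against 41.0%, 28.4% and 38.8% in control. The groups overlapped for both shares, and control replicate 2 had the highest Rarg and the lowest Rara share. Rarb was 2.35% to 3.25% of the RAR reads in all libraries. Rxra made up 60.8% and 60.02% of the RXR reads in Tbx1cko, against 59.2%, 57.5% and 58.1% in control, a narrow range in which both Tbx1cko shares lay above all controls.

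Levels between genes were compared per length, as RPKM computed from the recovered reads and the exon length of each gene, over all 5 libraries. The order ran from Dhrs3, with a mean of 44.8, through Rarg at 28.2, Rxra at 22.1, Rara at 17.4, Cyp26b1 at 13.4, Rdh10 at 3.82, Aldh1a2 at 1.91 and Rarb at 1.33 to Aldh1a1 at 0.607. The place of Cyp26b1 rests on 1 library. Without control replicate 2 its mean was 2.11, the same as that of Aldh1a2 at 2.11 and between Rdh10 at 4.18 and Rarb at 1.12. Ranges over the libraries overlapped for Dhrs3 and Rarg, for Rarg and Rxra, for Rxra and Rara, for Rdh10 and Aldh1a2, and for Aldh1a2 and Rarb. The range of Cyp26b1, 0.523 to 58.6, overlapped those of Rara and Rdh10, its neighbours in the order. The ranges of Rarb and Aldh1a1 did not overlap. In Tbx1cko the level of Cyp26b1 was 0.957 and 0.523, against 3.31, 58.6 and 3.64 in control.

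The rest of the pathway was read from 3 lists, with 6 genes standing in more than 1 of them. The list of retinoid metabolism and transport had 39 genes, of which 24 were in the table and 20 were tested. Of these, 0 passed in limma, edgeR or DESeq2 with all libraries. An unadjusted limma p under 0.05 was found for 2, both higher, beside 0.370% of all genes higher and 1.37% lower. Of the 20, 9 had a lower and 11 a higher mean in Tbx1cko, with a median log2 difference of 0.03. Tbx1cko values lay above all controls for 5 (25% of the list, beside 14.2% of all genes) and below them for 4 (20%, beside 13.9%). Fabp5, a fatty acid-binding protein that can carry retinoic acid to PPARδ, had 7176 and 9298 normalised reads in Tbx1cko, against 4282, 5994 and 5400 in control. Its log2 difference was 0.66 (SE 0.23, limma adjusted p = 0.762). DESeq2 without control replicate 2 called it, at an adjusted p of 0.00307 (0.888% of genes were called there), and with it Rbp7, a cellular retinol-binding protein gene of endothelium, at 0.0372. Rbp7, named after its values were seen, had 1597 and 2173 normalised reads in Tbx1cko, against 949, 1849 and 1329 in control, where control replicate 2 lay among the Tbx1cko values.

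Other transport and enzyme genes of this list were less abundant. Stra6l, a receptor for retinol-binding protein, had 51.2 and 71.3 normalised reads in Tbx1cko, against 30.5, 35.0 and 36.7 in control. Dhrs9, a retinol dehydrogenase of the short-chain family, had 75.0 and 82.5 in Tbx1cko, against 23.7, 16.6 and 61.2 in control. Rdh5, a retinol dehydrogenase best known from the retinal pigment epithelium, had 43.9 and 35.7 in Tbx1cko, against 56.5, 119 and 60.2 in control. For each of these 3 genes the groups did not overlap, and the limma adjusted p was 0.762. Like Fabp5, they were named for the smallest unadjusted limma p of the list, so this separation follows in part from the choice.

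The list of receptor partners and coregulators had 25 genes, of which 24 were tested, and 0 of these passed in limma (0 also at an unadjusted p under 0.05), edgeR or DESeq2. Of the 24, 17 had a lower mean in Tbx1cko, with a median log2 difference of -0.20, and -0.17 without control replicate 2. Below 0 were 47.6% of all genes tested. Pparg, a nuclear receptor that pairs with RXR, had 1085 and 1216 normalised reads in Tbx1cko, against 875, 847 and 867 in control. Rxrg had 9.15 and 18.3 in Tbx1cko, against 23.7, 36.8 and 21.6 in control. Nr2f1, an orphan receptor of the COUP-TF family, had 41.2 and 41.8 in Tbx1cko, against 61.0, 99.3 and 53.6 in control. None of these 3 genes had groups that overlapped, and each had a limma adjusted p of 0.762. They were named for the smallest unadjusted limma p of the list, so their separation follows in part from the choice. In the list of 24, Tbx1cko values lay below all controls for 8 (33.3%, beside 13.9% of all genes). They lay above all controls for 2 (8.33%, beside 14.2%).

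Genes known to be induced by retinoic acid, with the members Cyp26b1, Dhrs3 and Rarb left out, were mostly lower in mean in Tbx1cko. Of 35 listed, 24 were tested and 21 had a lower mean (87.5%, beside 47.6% of all genes), with a median log2 difference of -0.33. Without control replicate 2 it was 19 of 24 (beside 46.7% of all genes) with a median of -0.26. After GC correction of all libraries it was 19 of 24 (beside 50.8% of all genes) with a median of -0.39 (beside -0.006). The list was chosen with earlier results of these data known. No gene passed in limma (0 also at an unadjusted p under 0.05), edgeR or DESeq2, and Tbx1cko values lay below all controls for 8 of the 24 (33.3%, beside 13.9% of all genes). They lay above all controls for 1, the integrin gene Itga4 (named after its values were seen), beside 14.2% of all genes. Zfp423, a zinc finger factor that acts with retinoic acid receptors, had 381 and 378 normalised reads in Tbx1cko, against 591, 849 and 471 in control. Gata6, an endoderm and heart transcription factor, had 211 and 266 in Tbx1cko, against 315, 391 and 337 in control. Hoxb3 had 19.2 and 7.13 in Tbx1cko, against 19.2, 47.8 and 28.2 in control. Rarres2, which encodes the chemoattractant chemerin, had 52.1 and 38.7 in Tbx1cko, against 120, 182 and 48.9 in control, where the groups overlapped. The limma adjusted p of each of these 4 was 0.762, and they were named for the smallest unadjusted limma p of the list.

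**Figure D5:**
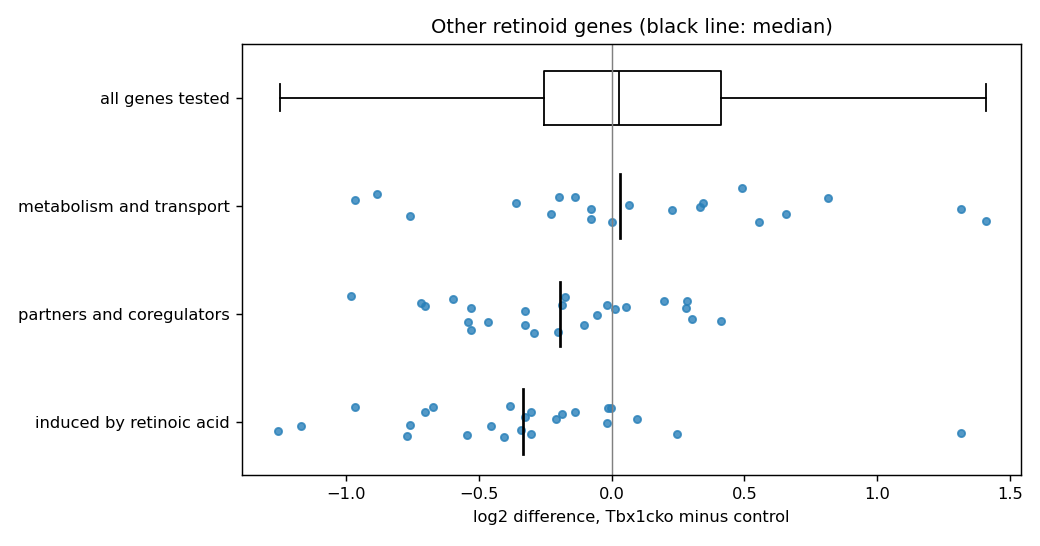
Log2 difference, Tbx1cko minus control, of the tested genes in 3 lists of other retinoid genes (points, with a black line at the median) beside all 14339 genes tested (box from the lower to the upper quartile, whiskers to the farthest gene within 1.5 times the box). The medians are 0.03 for metabolism and transport, -0.20 for partners and coregulators and -0.33 for genes induced by retinoic acid, beside 0.03 for all genes.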

How the data were processed

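Polyadenylated RNA of 5 libraries, 2 Tbx1cko and 3 control, was analysed, grouped by sample title. An Illumina TruSeq kit was used, per the labels' protocols. The build was GRCm38 and STAR 2.5.2b and DESeq2 1.20.0 were among the tools, per the submitters' processing notes, which name no read counter, annotation or strand setting. The authors deposited 1 signal per gene and library, namely its reads over the library's size factor. All values (100%) were whole multiples of 1 read within 0.01, so whole reads were recovered.

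On log2(normalised count + 1), limma 3.58.1 in R 4.3.3 was run over 14339 genes with a mean of at least 10, with genotype as the term and a trended prior, two-sided, with Benjamini-Hochberg adjustment over all genes and a threshold of 0.05. The pseudocount of 1 understates the change of low genes. edgeR 4.0.16 and DESeq2 1.42.0 on recovered reads were alternatives and called 0 and 4 of all genes. The fits were checked on simulated counts modelled on the libraries other than control replicate 2, so the check does not cover the deviation of that library. GC content, positions and exon lengths came from GENCODE M21 by symbol (16740 matched; 95.9% of tested genes had a GC value), and promoter windows from RefSeq. No replicates agreed within sampling noise (chi-square per degree of freedom at least 14.2 within groups).

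The members and lists were chosen with earlier results of these data known. Named genes are the 9 members, Tbx1, up to 4 genes per retinoid list with the smallest unadjusted limma p, and the 5 genes of mean at least 50 closest in profile to Cyp26b1. One gene that this rule names is not reported here. Marker lists of 13 cell types were used to check the label. Alternatives were other pseudocounts, filters, TMM scaling, no trend, a replicate block, GC correction (loess, span 0.3) and leaving out each library.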

Additional observations from a re-analysis of the deposited data

How the results depend on the processing

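None of the 8 members other than Cyp26b1 passed the threshold under the 18 alternatives, of which Aldh1a1 had 17 (its mean is below the filter at 50), and DESeq2 without control replicate 2 gave no adjusted p for Aldh1a1, Aldh1a2 and Rarb. The number of genes called over the whole table was 0 in the fit reported, 4 with DESeq2, 3 without control replicate 2 (0 to 3 when each library was left out in turn), 1 with edgeR and 78 with DESeq2 when control replicate 2 was left out. With the replicate number as a block it was 3. Same-numbered libraries did not deviate together (correlations of -0.0556 and -0.0461 across genes). The deviations of the 2 Tbx1cko libraries from their mean are exact opposites, so these correlations cannot exclude a pairing. The log2 difference of Cyp26b1 stayed negative, from -4.95 (edgeR and DESeq2, which weigh the mean of the reads) to -2.20 (GC correction with control replicate 2 left out), and from -4.38 to -2.29 when each library was left out in turn. Aldh1a2, Dhrs3, Rara, Rarb and Rarg kept their direction under all 18, with Rarg from -1.27 to -0.45 and Rara from -0.64 to -0.10. The other filters and the fit without a trend cannot change a log2 difference. The block gave the same log2 differences as leaving out control replicate 3, so not all of the 18 are separate checks of direction. Rdh10 changed sign to -0.0085 with TMM scaling, -0.047 with edgeR, -0.035 with DESeq2, -0.20 after GC correction, and -0.29 (edgeR), -0.29 (DESeq2) and -0.32 (GC correction) with control replicate 2 left out, and ran from -0.29 to 0.24 when each library was left out. Rxra changed sign to 0.11 after GC correction and to 0.020 (edgeR), 0.021 (DESeq2) and 0.13 (GC correction) with control replicate 2 left out, and ran from -0.37 to 0.038 when each library was left out. Aldh1a1 changed sign to 0.081 with the block and ran from -0.19 to 0.18 when each library was left out. The cause was not tested. Aldh1a1 rests on 39 to 59 reads a library and Rarb on 61 to 209, which limits the precision of their values, and leaving out a Tbx1cko library leaves 1, assumed to vary like the controls.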
